A study of Homo sapiens with 8 samples.

Results

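In MEG-01 cells given phorbol myristate acetate (PMA), 57 protein-coding genes lay at least 6-fold below their level in untreated cells. They were chosen from the 9603 protein-coding genes that had at least 3 TPM (a share of all transcripts, corrected for length) in both untreated libraries, by requiring both PMA libraries to lie at or below the lower untreated value divided by 6. MEG-01 is an established human megakaryoblastic leukaemia line, and PMA switches on protein kinase C in place of its natural lipid activator. The 4 groups held 2 libraries each: cells given PMA at 100 nM with Ceefourin 2, an inhibitor of the exporter ABCC4, at 20 µM for 48 h, cells given PMA at 100 nM alone for 48 h, cells given Ceefourin 2 alone for 48 h, and untreated cells (UT). For the cells that received Ceefourin 2 without PMA, the labels state no dose. No group carried a genetic change made for the study, and all groups share the leukaemic background of 1 line.

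Phorbol esters drive megakaryoblastic lines out of division and towards large, adherent, platelet-protein-bearing cells. Uncommitted blood progenitors keep genes of several lineages at a low level, including leukocyte surface proteins and red cell proteins, and these are known to be lost as a cell commits to 1 lineage. Dividing cells also maintain serine synthesis and folate enzymes, which supply carbon units for nucleotides, and a set of cell cycle genes.

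The genes lowered by PMA fall into recognisable roles. By textbook function, 12 are metabolic enzymes, 11 are secreted factors or act in receptor signalling, 8 are nuclear or cell cycle proteins, 7 belong to the leukocyte surface or immune cells, 4 are red cell genes, 4 carry lipids or metabolites and 10 are little characterised. The assignment to roles was made after the members were known and carries no test. The genes lie on many chromosomes, with 8 on chromosome 1 and 4 each on chromosomes 2, 5, 11, 16 and 19.

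**Figure D1:**
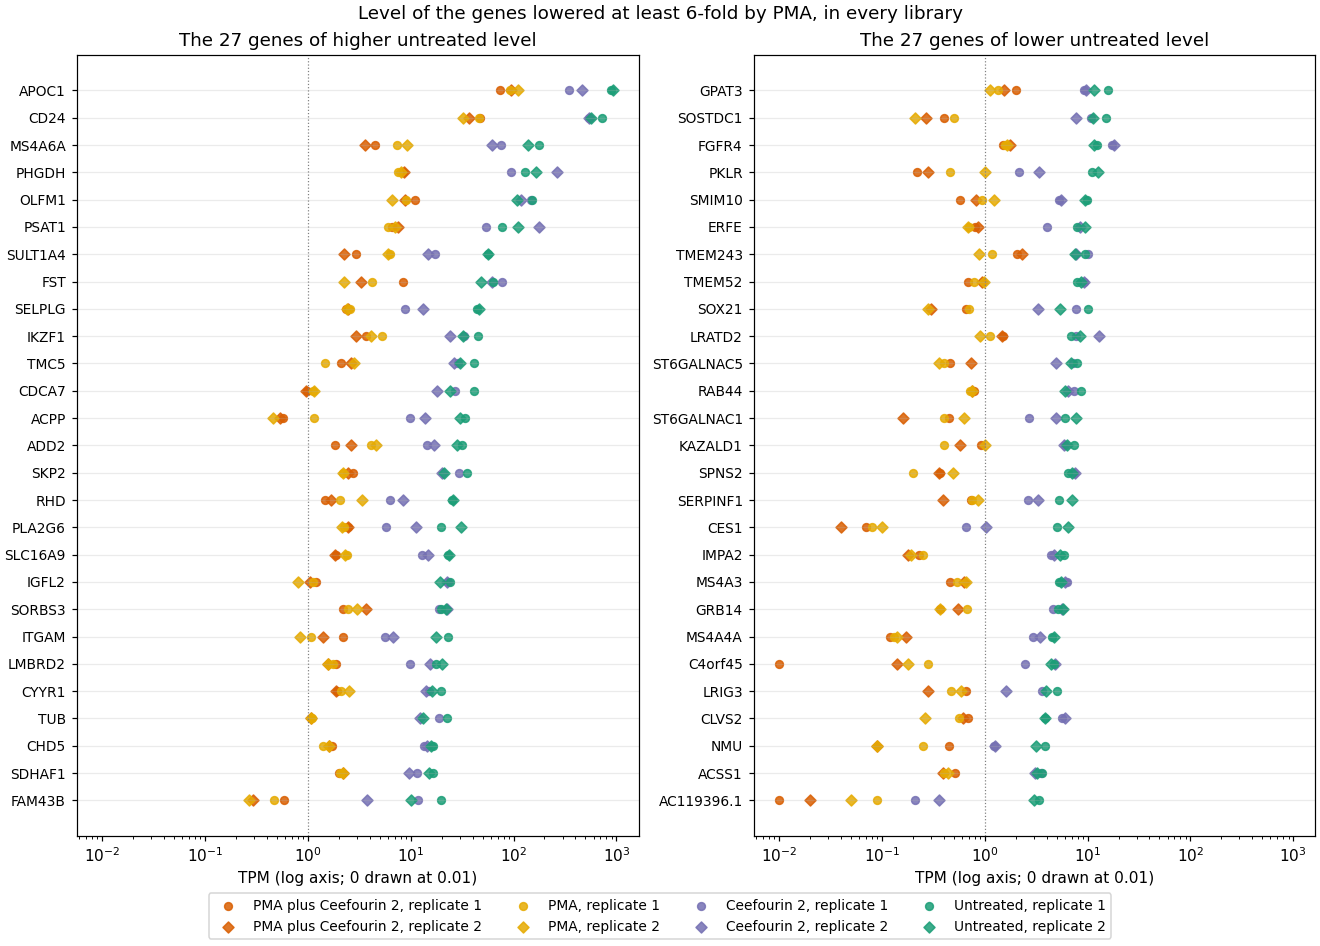
TPM of the genes lowered at least 6-fold by PMA (log axis) in each of the 8 libraries, ordered by untreated level; a circle is replicate 1 and a diamond replicate 2, the dotted line marks 1 TPM, and a value of 0 is drawn at 0.01. The near-identical pair RBMY1A1 and RBMY1B is not drawn. The libraries with PMA, with or without Ceefourin 2, sit to the left of the libraries without it in every row. For PMA against untreated the choice of genes set this in advance, and it was not counted over all genes.

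"Shut off" describes only some of the genes. Of the 57, 24 were below 1 TPM in both PMA libraries and 10 were below 0.5 TPM in both, whereas 33 kept at least 1 TPM in a PMA library. The untreated mean was below 10 TPM for 26 genes, between 10 and 100 TPM for 26 and above 100 TPM for 5. The ratio of the untreated mean to the PMA mean ran from 6.84 for ADD2 to 63.9 for CES1, with a median of 12.5. It was above 10 for 35 genes and above 20 for 12. The top value rests on few reads, since CES1 had expected counts of 2 and 2 with PMA. These values chose the genes and are given as a description. In the fit over 17314 genes, 25.7% of all genes were called lower with PMA than in untreated cells, so the direction itself was common. Just inside the threshold, the lower untreated library exceeded the higher PMA library 6.09-fold for LRATD2, 6.11-fold for SERPINF1 and 6.14-fold for ADD2. Just outside it stood SULT1A3 at 5.99-fold, CA1 at 5.95-fold and RXFP1 at 5.94-fold.

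The libraries held 44430292 to 89950886 expected counts each. Summed over the 57 genes, the level was 216.1 and 219.5 TPM with PMA plus Ceefourin 2, 235.3 and 238.2 TPM with PMA, 1825 and 2167 TPM with Ceefourin 2 and 3014 and 2767 TPM untreated. Nothing in the labels says that the 2 libraries of a group came from separate cultures, so the p-values measure the spread between these libraries. The mitochondrial share of counts was 8.32% and 4.94% with PMA plus Ceefourin 2, 9.61% and 4.53% with PMA, 2.77% and 3.11% with Ceefourin 2 and 2.55% and 3.94% untreated. Its part in the results was not tested. Of 8 megakaryocytic markers, 5 exceeded 1 TPM in both untreated libraries and PF4 was at 0 in both. In bulk RNA, fewer cells that express a gene and less of its RNA per cell cannot be told apart.

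The comparison that the choice of genes did not use is PMA plus Ceefourin 2 against Ceefourin 2 alone. In that comparison all 57 genes were called lower (edgeR adjusted p at most 0.0293), against 25.6% of all genes tested. Their median log2 fold change was -2.97 and that of all genes 0.02, with a range over the 57 from -5.17 for C4orf45 to -1.13 for PLA2G6. For every gene of the 57, both libraries with PMA plus Ceefourin 2 lay below both libraries with Ceefourin 2. How many of all genes did so was not counted. The ratio of the Ceefourin 2 mean to the PMA plus Ceefourin 2 mean had a median of 10.2 and ran from 3.43 for ITGAM to 51.6 for C4orf45. The top value rests on few reads: C4orf45 had 0 and 0.14 TPM with PMA plus Ceefourin 2, 0.28 and 0.18 TPM with PMA, 2.45 and 4.78 TPM with Ceefourin 2 and 4.73 and 4.36 TPM untreated, and its expected counts with PMA plus Ceefourin 2 were 0 and 6. The 6-fold rule, applied afresh to these 4 libraries, was met by 38 of the 57 genes, and 29 were below 1 TPM in both libraries with PMA plus Ceefourin 2.

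**Figure D2:**
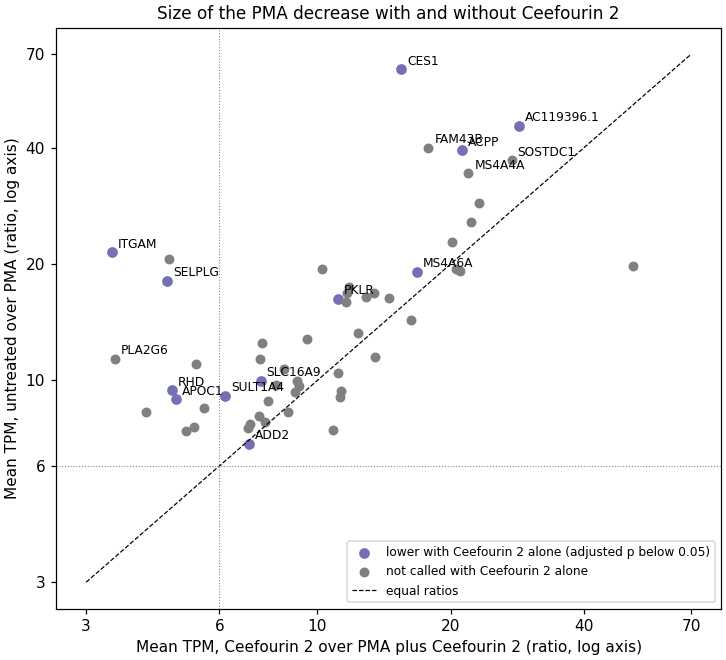
Ratio of mean TPM in Ceefourin 2 cells to PMA plus Ceefourin 2 cells (horizontal, log axis) against the ratio in untreated cells to PMA cells (vertical, log axis), 1 point per gene. The vertical axis was held above 6 by the choice of genes; horizontally the points run from 3.43 to 51.6, and purple points are the genes called lower with Ceefourin 2 alone.

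The leukocyte surface genes of the set, which were chosen for lying lower with PMA, ranged from abundant to scarce in untreated cells. CD24, a glycoprotein tethered to the surface of immature blood cells, had 47.05 and 36.98 TPM with PMA plus Ceefourin 2, 46.45 and 32.5 TPM with PMA, 538.26 and 541.42 TPM with Ceefourin 2 and 732.07 and 564.01 TPM untreated. CD24 was high in all libraries without PMA, and it kept over 30 TPM in all libraries with PMA. It fell by 3.48 ± 0.21 on the log2 scale (SE) with PMA plus Ceefourin 2 against Ceefourin 2 (adjusted p = 1.06e-05). The gene has several near copies, and reads may be divided among them.

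SELPLG encodes PSGL-1, the leukocyte ligand of P-selectin. SELPLG had 2.37 and 2.44 TPM with PMA plus Ceefourin 2, 2.58 and 2.42 TPM with PMA, 8.82 and 13.16 TPM with Ceefourin 2 and 44.14 and 46.54 TPM untreated. Its Ceefourin 2 libraries lay between the untreated libraries and the PMA libraries, with no overlap. ITGAM, the alpha chain of the leukocyte integrin Mac-1, had 2.21 and 1.41 TPM with PMA plus Ceefourin 2, 1.07 and 0.83 TPM with PMA, 5.65 and 6.76 TPM with Ceefourin 2 and 23.25 and 17.52 TPM untreated. The same order held for ITGAM, except that its PMA plus Ceefourin 2 libraries were above its PMA libraries.

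Neighbouring genes of the MS4A family, which encode membrane proteins with 4 membrane-spanning segments, fell together. MS4A6A had 4.53 and 3.62 TPM with PMA plus Ceefourin 2, 7.3 and 9.24 TPM with PMA, 75.73 and 61.12 TPM with Ceefourin 2 and 177.21 and 138.63 TPM untreated. MS4A4A had 0.12 and 0.17 TPM with PMA plus Ceefourin 2, 0.13 and 0.14 TPM with PMA, 2.93 and 3.43 TPM with Ceefourin 2 and 4.52 and 4.76 TPM untreated. MS4A6A differed in level between the PMA groups and between the groups without PMA, while MS4A4A was near 0 in all 4 libraries with PMA. On chromosome 11 (GENCODE v29, GRCh38), MS4A6A spans chr11:60172014-60184666 and MS4A4A begins 1036 bases past its end; MS4A3 lies 100886 bases before it. MS4A3 had 0.46 and 0.63 TPM with PMA plus Ceefourin 2, 0.54 and 0.66 TPM with PMA, 6.28 and 5.98 TPM with Ceefourin 2 and 5.31 and 5.56 TPM untreated. The log2 fold change of PMA plus Ceefourin 2 against Ceefourin 2 was -3.08 ± 0.27 for MS4A3, -4.04 ± 0.17 for MS4A6A and -4 ± 0.26 for MS4A4A. Among the other 3 tested genes of the family, 2 were called lower and 0 higher in that comparison, MS4A4E at -2.2 among them. RAB44, a large GTPase of the RAB family, fell by 2.87 ± 0.16 in the same comparison. Of the other 16 tested genes of a granulocyte and monocyte list, 4 were called lower, where 25.6% of all genes were, and 6 higher. Their median log2 fold change was 1.14, beside 0.02 for all genes, so the list did not fall as a whole. The share of all genes called higher is not given here.

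The metabolic enzymes were led by the first pair of enzymes of serine synthesis. PHGDH, which makes the first committed step from 3-phosphoglycerate, had 8.39 and 8.64 TPM with PMA plus Ceefourin 2, 7.45 and 8 TPM with PMA, 93.88 and 264.3 TPM with Ceefourin 2 and 130.05 and 167.05 TPM untreated. PSAT1, the aminotransferase of the next step, had 6.56 and 7.54 TPM with PMA plus Ceefourin 2, 6.06 and 7.01 TPM with PMA, 53.41 and 176.23 TPM with Ceefourin 2 and 76.8 and 110.08 TPM untreated. The 4 libraries with PMA lay close together for both enzymes, and the pair of Ceefourin 2 libraries lay far apart. Replicate 2 exceeded replicate 1 in Ceefourin 2 cells 2.82-fold for PHGDH and 3.3-fold for PSAT1, and replicate 2 was also the higher untreated library for both. The log2 fold change of PMA plus Ceefourin 2 against Ceefourin 2 was -4.22 ± 0.48 for PHGDH (adjusted p = 0.000197) and -3.75 ± 0.53 for PSAT1 (adjusted p = 0.000643). Neither was called between Ceefourin 2 and untreated cells (adjusted p = 0.869 for PHGDH and 0.883 for PSAT1).

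The wider serine, glycine and folate list moved the same way by smaller amounts. Of the other 20 tested genes of the list, 16 were called lower and 2 higher with PMA plus Ceefourin 2 against Ceefourin 2. Of all genes, 25.6% were called lower there. The median log2 fold change of the 20 was -1.22, where the median of all genes was 0.02. MTHFD2, a mitochondrial folate enzyme, had 72.84 and 81.56 TPM with PMA plus Ceefourin 2, 70.54 and 83.09 TPM with PMA, 239.69 and 375.85 TPM with Ceefourin 2 and 248.56 and 271.9 TPM untreated. TYMS, the thymidylate synthase, had 69.98 and 81.97 TPM with PMA plus Ceefourin 2, 69.72 and 93.56 TPM with PMA, 305.85 and 284.22 TPM with Ceefourin 2 and 324.96 and 299.03 TPM untreated. The higher Ceefourin 2 library of MTHFD2 was replicate 2, as for PHGDH and PSAT1, while that of TYMS was replicate 1.

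**Figure D3:**
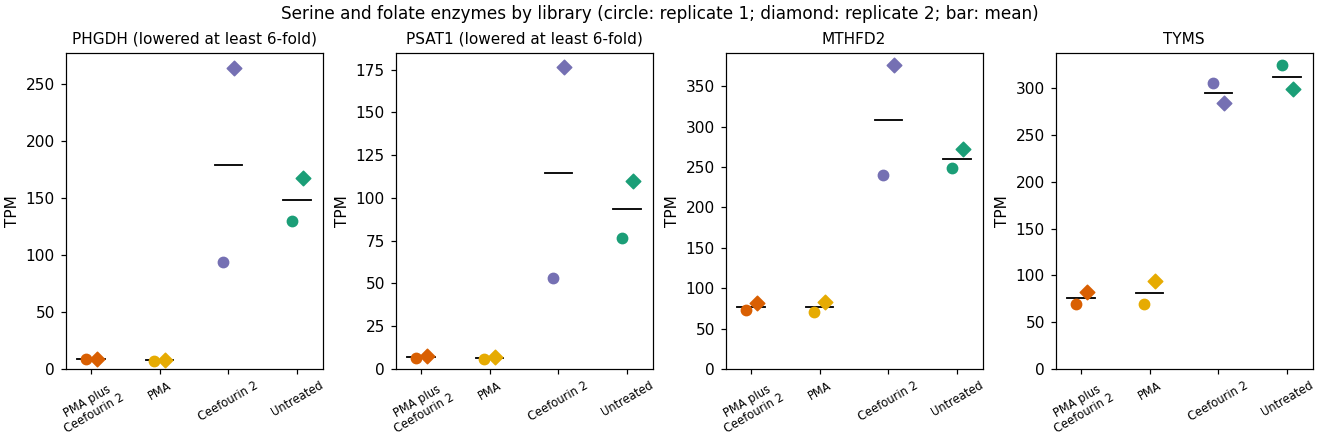
TPM of PHGDH, PSAT1, MTHFD2 and TYMS in each library (circle: replicate 1; diamond: replicate 2; bar: mean of 2). PHGDH and PSAT1 stayed below 9 TPM in all libraries with PMA, and their Ceefourin 2 replicates differed 2.82-fold and 3.3-fold.

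The stretches before the RefSeq starts of PSAT1 and PHGDH are shown because the 2 genes moved together across the libraries; capitals mark the CCAAT word, a common promoter element, on either strand. The PHGDH window is cut to the bases around the word, since alternative first exons begin there in GENCODE v29. Both come from RefSeq (GRCh38.p14, plus strand): PSAT1 from chr9:78296875-78297124 and PHGDH from chr1:119711851-119711880.
PSAT1: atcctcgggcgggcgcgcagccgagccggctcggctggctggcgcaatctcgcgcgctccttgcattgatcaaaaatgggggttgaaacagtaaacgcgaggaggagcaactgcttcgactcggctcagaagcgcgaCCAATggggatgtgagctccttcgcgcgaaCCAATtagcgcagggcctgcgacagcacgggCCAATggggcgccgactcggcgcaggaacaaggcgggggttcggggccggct
PHGDH: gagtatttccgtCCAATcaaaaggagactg

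The word occurs 3 times in the 250 bases of PSAT1 and 1 time in the 30 bases of PHGDH. The PHGDH stretch was cut around the word, so the counts of the pair cannot be compared. Over both strands of the RefSeq windows, which run from 250 bases before a start to 50 after it, CCAAT was present for 20 of the 41 genes of the set that had a window (48.8%) and for 39.7% of 27305 genes. The element TGATGNAAT, which C/EBP and ATF factors can bind, was searched in the same windows and found for 0 of the 41 genes and for 1.22% of all genes; it was chosen after the names of the genes were seen. The E-box CACGTG was present for 10 of the 41 (24.4%), among them MS4A6A, PKLR, SLC16A9, PLA2G6 and the overlapping pair RBMY1A1 and RBMY1B, and for 8.77% of all genes. A GATA word, AGATAA or TGATAA, was present for 10 of the 41 (24.4%) and for 19.4% of all genes. The matches are a description of letters and were not tested. A gene counted if any of its windows matched, and the 41 genes had 63 windows where the 27305 had 35116. The 27305 were not limited to genes expressed in these cells. The shares of the set and of all genes, also for the E2F words below, are therefore not on equal terms.

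Other enzymes of the set were lower in level but spanned the widest ratios. CES1, a carboxylesterase that cleaves esters and drugs, had 0.07 and 0.04 TPM with PMA plus Ceefourin 2, 0.08 and 0.1 TPM with PMA, 0.66 and 1.04 TPM with Ceefourin 2 and 5.03 and 6.47 TPM untreated. IMPA2, an inositol monophosphatase, had 0.23 and 0.18 TPM with PMA plus Ceefourin 2, 0.25 and 0.19 TPM with PMA, 4.38 and 4.76 TPM with Ceefourin 2 and 5.87 and 5.44 TPM untreated. Both were near 0 with PMA, and of the pair CES1 was also called lower with Ceefourin 2 alone. ACPP (current symbol ACP3), the prostatic acid phosphatase, had 0.57 and 0.54 TPM with PMA plus Ceefourin 2, 1.16 and 0.46 TPM with PMA, 9.76 and 13.77 TPM with Ceefourin 2 and 34 and 29.9 TPM untreated. SULT1A4, a sulfotransferase of catecholamines, had 2.95 and 2.27 TPM with PMA plus Ceefourin 2, 6.28 and 6.04 TPM with PMA, 17.37 and 14.84 TPM with Ceefourin 2 and 56.47 and 55.99 TPM untreated. All 4 groups of SULT1A4 were apart from each other, in that order from low to high. SULT1A4 is nearly identical to SULT1A3 and shares exons with a readthrough transcript, so reads may be divided between them.

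The remaining enzymes act on phospholipids, sialic acid, acetate and the respiratory chain. They are PLA2G6 and GPAT3 of phospholipid and glycerolipid metabolism, the sialyltransferases ST6GALNAC1 and ST6GALNAC5, ACSS1, which makes acetyl-CoA in mitochondria, and SDHAF1, an assembly factor of succinate dehydrogenase. Their log2 fold changes with PMA plus Ceefourin 2 against Ceefourin 2 ran from -4.09 for ST6GALNAC1 to -1.13 for PLA2G6.

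The most abundant of the secreted factors was OLFM1, a secreted olfactomedin. OLFM1 had 10.91 and 8.79 TPM with PMA plus Ceefourin 2, 8.95 and 6.54 TPM with PMA, 147.62 and 116.99 TPM with Ceefourin 2 and 152.96 and 107.25 TPM untreated. FST, follistatin, which binds and blocks activin, had 8.48 and 3.3 TPM with PMA plus Ceefourin 2, 4.21 and 2.23 TPM with PMA, 76.76 and 62.22 TPM with Ceefourin 2 and 63.47 and 48.63 TPM untreated. For both genes the Ceefourin 2 and untreated libraries overlapped, as did the libraries of the PMA groups. SOSTDC1, a secreted antagonist of BMP and WNT ligands, had 0.4 and 0.27 TPM with PMA plus Ceefourin 2, 0.5 and 0.21 TPM with PMA, 10.72 and 7.69 TPM with Ceefourin 2 and 15.21 and 11.19 TPM untreated. IGFL2, of the insulin growth factor-like family, had 1.21 and 1.05 TPM with PMA plus Ceefourin 2, 1.11 and 0.8 TPM with PMA, 23.14 and 22.32 TPM with Ceefourin 2 and 24.16 and 19.37 TPM untreated.

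With Ceefourin 2 present in both groups, these genes fell with PMA. The log2 fold change of PMA plus Ceefourin 2 against Ceefourin 2 was -3.6 ± 0.2 for OLFM1, -3.52 ± 0.45 for FST, -4.51 ± 0.32 for SOSTDC1 and -4.22 ± 0.2 for IGFL2 (adjusted p at most 0.000356). The receptor FGFR4 for fibroblast growth factors, the adaptor GRB14 of the insulin receptor, the adhesion adaptor SORBS3, the membrane protein LRIG3, the neuropeptide NMU, the serpin SERPINF1 and KAZALD1 made up the rest, at -3.01 to -2.22 in that comparison. SERPINF1, near the threshold of the rule, had 0.74 and 0.39 TPM with PMA plus Ceefourin 2, 0.76 and 0.86 TPM with PMA, 2.63 and 3.31 TPM with Ceefourin 2 and 5.25 and 7 TPM untreated. Between Ceefourin 2 and untreated cells the 11 genes of this role missed the threshold of edgeR (adjusted p at least 0.124). Among the other 24 tested genes of a list of BMP, TGF-beta and WNT modulators, 7 were called lower and 10 higher with PMA plus Ceefourin 2 against Ceefourin 2. Of all genes, 25.6% were called lower in that comparison.

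The nuclear and cell cycle genes of the set fell with PMA plus Ceefourin 2 against Ceefourin 2. They missed the threshold for Ceefourin 2 against UT (edgeR adjusted p at least 0.302). IKZF1, the lymphoid and haematopoietic factor Ikaros, had 3.67 and 2.97 TPM with PMA plus Ceefourin 2, 5.27 and 4.08 TPM with PMA, 32.92 and 24.09 TPM with Ceefourin 2 and 44.93 and 32.43 TPM untreated. CDCA7, a nuclear partner of the chromatin remodeller HELLS, had 0.99 and 0.96 TPM with PMA plus Ceefourin 2, 1.12 and 1.15 TPM with PMA, 27.06 and 18.22 TPM with Ceefourin 2 and 41.28 and 24.07 TPM untreated. Both genes were higher in replicate 1 than in replicate 2 without PMA. Their log2 fold changes with PMA plus Ceefourin 2 against Ceefourin 2 were -2.72 ± 0.24 for IKZF1 and -4.17 ± 0.27 for CDCA7. In the same comparison SKP2, the F-box protein that marks the CDK inhibitor p27 for degradation, was at -2.91 ± 0.28, TUB at -3.56 ± 0.26, the chromatin remodeller CHD5 at -2.84 ± 0.1 and the transcription factor SOX21 at -3.28 ± 0.57. RBMY1A1 and RBMY1B, germ cell splicing factors that overlap on 1 strand of chromosome Y, were at -3.49 ± 0.2 and -2.94 ± 0.41, and reads cannot be assigned to either with certainty. Of the other 12 tested genes of a list of CDCA7 partners and DNA methylation factors, 8 were called lower and 2 higher. Of all genes, 25.6% were called lower in that comparison. The median log2 fold change of the 12 was -0.84, beside 0.02 for all genes.

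CDCA7 is 1 of 3 genes of the 41 (7.32%) whose promoter window held an E2F word (TTTGGCGC, TTTCCCGC or TTTGGCGG, either strand), with ADD2 and RHD; 3.5% of all genes had 1. The CDCA7 stretch before its GENCODE start is shown with that word in capitals, together with the short gap between LMBRD2 and SKP2, which are transcribed away from each other on chromosome 5. Both come from RefSeq windows on GRCh38.p14, plus strand: CDCA7 from chr2:173354622-173354819 and the gap, 27 bases between the GENCODE starts, from chr5:36151962-36151988.
CDCA7: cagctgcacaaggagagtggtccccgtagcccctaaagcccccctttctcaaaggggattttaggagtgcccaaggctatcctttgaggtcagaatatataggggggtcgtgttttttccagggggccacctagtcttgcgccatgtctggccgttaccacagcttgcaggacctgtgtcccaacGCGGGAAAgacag
LMBRD2-SKP2: gggtatctcgaaggcgggtaaagctgc

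LMBRD2, a little characterised membrane protein, had a log2 fold change of -2.85 ± 0.23 with PMA plus Ceefourin 2 against Ceefourin 2, beside -2.91 ± 0.28 for its neighbour SKP2. Their replicates were ordered oppositely: in untreated cells replicate 1 was 1.66 times replicate 2 for SKP2 and 0.87 times for LMBRD2. No shared exon is annotated for the pair. The E2F-regulated DNA replication list, which holds none of the 57 genes, had 37 of 39 genes called lower and 1 higher in the same comparison. Of all genes, 25.6% were called lower. The list had a median log2 fold change of -1.29, beside 0.02 for all genes.

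The set held 4 red cell genes. ADD2, beta adducin of the membrane skeleton, had 1.82 and 2.65 TPM with PMA plus Ceefourin 2, 4.12 and 4.58 TPM with PMA, 14.46 and 16.83 TPM with Ceefourin 2 and 31.38 and 28.14 TPM untreated. RHD, the Rhesus D antigen, had 1.47 and 1.69 TPM with PMA plus Ceefourin 2, 2.05 and 3.33 TPM with PMA, 6.28 and 8.51 TPM with Ceefourin 2 and 24.98 and 25.78 TPM untreated. PKLR, the pyruvate kinase of red cells and liver, had 0.22 and 0.28 TPM with PMA plus Ceefourin 2, 0.46 and 1 TPM with PMA, 2.16 and 3.4 TPM with Ceefourin 2 and 11.01 and 12.73 TPM untreated. All 3 genes had their groups apart in the same order, lowest with PMA plus Ceefourin 2 and highest untreated. The choice of genes set PMA below untreated, and genes with this order were not counted over all genes. The fourth, ERFE, encodes the hormone erythroferrone, which lowers hepcidin, and fell by 2.75 ± 0.38 with PMA plus Ceefourin 2 against Ceefourin 2. ERFE did not keep that order. It had 0.8 and 0.86 TPM with PMA plus Ceefourin 2, 0.7 and 0.69 TPM with PMA, 4.04 and 8.38 TPM with Ceefourin 2 and 7.88 and 9.45 TPM untreated. RHD has the close copy RHCE and overlaps RSRP1 on the other strand. The erythroid list as a whole did not move 1 way with PMA: of its other 34 tested genes, 15 were called lower (25.6% of all genes were) and 12 higher with PMA plus Ceefourin 2 against Ceefourin 2, with a median log2 fold change of -0.19. HBG2, a fetal globin and the most abundant of them, rose by 3.23 ± 0.2 on the log2 scale, and HBA1, an adult alpha globin, fell by 1.22 ± 0.16.

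Carriers of lipids and metabolites were led by the most abundant gene of the set. APOC1, an apolipoprotein, had 73.4 and 95.3 TPM with PMA plus Ceefourin 2, 93.18 and 109.43 TPM with PMA, 344.38 and 463.48 TPM with Ceefourin 2 and 884.06 and 927.6 TPM untreated. Its mean with PMA, 101.3 TPM, was above the untreated mean of all but 4 of the other genes of the set. SLC16A9, a carrier of the monocarboxylate transporter family, had 1.86 and 1.82 TPM with PMA plus Ceefourin 2, 2.38 and 2.32 TPM with PMA, 12.76 and 14.62 TPM with Ceefourin 2 and 22.98 and 23.85 TPM untreated. SPNS2, listed by the authors as AC118754.1, exports sphingosine 1-phosphate. SPNS2 (AC118754.1) had 0.37 and 0.36 TPM with PMA plus Ceefourin 2, 0.2 and 0.49 TPM with PMA, 7.45 and 7.56 TPM with Ceefourin 2 and 6.4 and 7.04 TPM untreated. It fell by 4.3 ± 0.19 on the log2 scale with PMA plus Ceefourin 2 against Ceefourin 2 (adjusted p = 2.86e-06), and both of its Ceefourin 2 libraries lay above both untreated ones. CLVS2, clavesin 2, a phosphoinositide-binding protein, had 0.69 and 0.62 TPM with PMA plus Ceefourin 2, 0.56 and 0.26 TPM with PMA, 5.63 and 6.03 TPM with Ceefourin 2 and 3.82 and 3.83 TPM untreated.

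The little characterised genes included some of the deepest falls. FAM43B had 0.59 and 0.29 TPM with PMA plus Ceefourin 2, 0.47 and 0.27 TPM with PMA, 11.91 and 3.75 TPM with Ceefourin 2 and 19.6 and 10.06 TPM untreated. TMC5, of the transmembrane channel-like family, had 2.11 and 2.61 TPM with PMA plus Ceefourin 2, 1.47 and 2.78 TPM with PMA, 29 and 26.14 TPM with Ceefourin 2 and 41.38 and 30.18 TPM untreated. FAM43B was 1.95 times as high in untreated replicate 1 as in replicate 2, the widest such gap of the set. AC119396.1, which has no assigned name or role, had 0 and 0.02 TPM with PMA plus Ceefourin 2, 0.09 and 0.05 TPM with PMA, 0.21 and 0.36 TPM with Ceefourin 2 and 3.38 and 3.01 TPM untreated. It shares exons with another gene on its strand, and its Ceefourin 2 libraries lay much nearer to the PMA libraries than to the untreated ones. Its expected counts with PMA plus Ceefourin 2 were 0 and 2. LRATD2 had 1.51 and 1.46 TPM with PMA plus Ceefourin 2, 1.13 and 0.9 TPM with PMA, 7.69 and 12.96 TPM with Ceefourin 2 and 6.88 and 8.39 TPM untreated. CYYR1, SMIM10, TMEM243, TMEM52, LRATD2 and C4orf45 completed the role, at -5.17 to -1.76 with PMA plus Ceefourin 2 against Ceefourin 2.

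Some of the genes were also lower with Ceefourin 2 alone. With Ceefourin 2 against UT, 12 of the 57 genes (21.1%) were called lower by edgeR, against 0.722% of all genes tested, and 0 were called higher, against 0.959%. DESeq2 called 2 of the 57 higher, against 3.55% of all genes. At an unadjusted edgeR p below 0.05, 3 were higher, a count not made over all genes. The 12 were SULT1A4, SELPLG, ITGAM, AC119396.1, CES1, MS4A6A, ADD2, RHD, SLC16A9, PKLR, APOC1 and ACPP, which kept between 8.92% and 58.5% of the untreated mean. The untreated libraries are those that the choice of genes held high, so this comparison is not independent of it. Choosing genes on 1 replicate and testing without its UT and PMA libraries, a check added after the data were seen, cannot remove this limit. It leaves 1 untreated library, and nothing in the labels says that the replicates came from separate cultures. The replicate differences of UT and Ceefourin 2 cells also went together (correlation 0.711). The median log2 fold change over the 57 was -0.44, beside -0.0046 for all genes. Both Ceefourin 2 libraries lay below both untreated libraries for 31 genes and above both for 6. The same counts over all genes were not made, and the choice held the untreated libraries high, so these counts are a description only.

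Among the red cell genes that passed, the log2 fold change of Ceefourin 2 against UT was -2.13 ± 0.35 for PKLR (adjusted p = 0.0292), -1.84 ± 0.24 for RHD (adjusted p = 0.0138) and -0.93 ± 0.11 for ADD2 (adjusted p = 0.0113). Among the leukocyte surface genes that passed it was -2.08 ± 0.2 for SELPLG (adjusted p = 0.0056), -1.59 ± 0.16 for ITGAM (adjusted p = 0.00599) and -1.3 ± 0.15 for MS4A6A (adjusted p = 0.0101). SULT1A4 had the smallest adjusted p of the set, 0.00139, at -1.84 ± 0.12. The other called genes were CES1 at -2.92 ± 0.33, ACPP at -1.52 ± 0.28, APOC1 at -1.18 ± 0.21, SLC16A9 at -0.77 ± 0.12 and AC119396.1 at -3.46 ± 0.38. SULT1A4 and SELPLG passed in all 8 fits that left out 1 library each, and the other 10 each missed the threshold in at least 1 of them. FGFR4 and CLVS2 had the highest ratios to UT, at 149% and 152% of the untreated mean, and neither passed (adjusted p = 0.182 and 0.0771).

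Of the other 34 tested genes of an erythroid list, 16 were called lower and 0 higher with Ceefourin 2 against UT. Of all genes, 0.722% were called lower and 0.959% higher. The median log2 fold change of the 34 was -1.07, beside -0.0046 for all genes. The summed level of 5 erythroid markers was 168.7 and 140.8 TPM with Ceefourin 2 and 395.9 and 365.8 TPM untreated; 4 of 5 exceeded 1 TPM in both Ceefourin 2 libraries, 5 of 5 did in both untreated libraries, and none was at 0. For 7 granulocyte and monocyte markers, ITGAM among them, the sum was 251.7 and 252.8 TPM with Ceefourin 2 and 318.3 and 283.9 TPM untreated, with 3 of 7 above 1 TPM in both libraries of each group and ELANE at 0 in both groups. The part of such cells in the results was not tested.

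**Figure D4:**
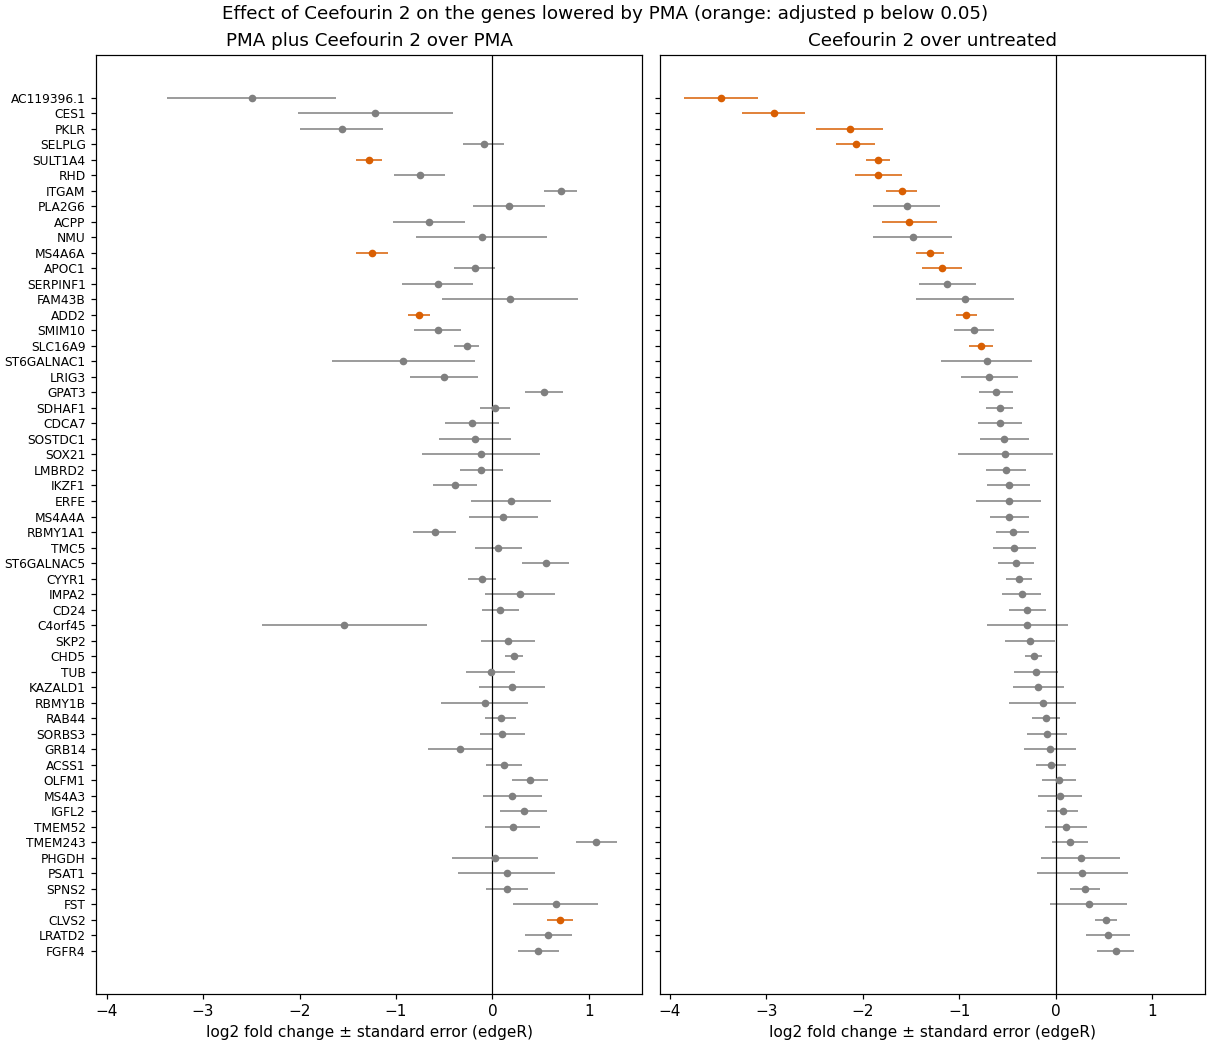
Log2 fold change with its standard error (edgeR) for PMA plus Ceefourin 2 over PMA (left) and Ceefourin 2 over untreated (right), 1 row per gene, ordered by the right panel; orange marks an adjusted p below 0.05. On the right the orange genes all lie at -0.77 or below; on the left 3 are below 0 and CLVS2 is above it.

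The effect of Ceefourin 2 was also tested with PMA present. With PMA plus Ceefourin 2 against PMA, 3 of the 57 were called lower, against 0.913% of all genes, and 1 was called higher, against 0.918%; the PMA libraries are those that the choice of genes held low. At an unadjusted p below 0.05 there were 14, a count not made over all genes. The log2 fold change was -1.28 ± 0.13 for SULT1A4 (adjusted p = 0.00561), -1.25 ± 0.17 for MS4A6A (adjusted p = 0.0151), -0.76 ± 0.11 for ADD2 (adjusted p = 0.0207) and 0.7 ± 0.13 for CLVS2 (adjusted p = 0.0452). CLVS2 passed in none of the 8 fits that left out 1 library. SULT1A4 passed in all 8, MS4A6A in 5 and ADD2 in 4. Over the 57 genes, 28 had a negative and 29 a positive log2 fold change, with a median of 0.024 beside 0.0022 for all genes.

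The 3 genes that fell here are also among the 12 that fell with Ceefourin 2 alone. The 2 comparisons share no library, but the UT and PMA libraries of both chose the genes. Of those 12, 11 had a negative log2 fold change in PMA plus Ceefourin 2 against PMA, ITGAM being the exception at 0.71 ± 0.17 (adjusted p = 0.101), and of the other 45 genes 17 did. The same share was not taken over all genes called lower with Ceefourin 2 alone, so it is not read as particular to these genes. TMEM243 had the largest positive value of the set, 1.08 ± 0.22, and missed the threshold (adjusted p = 0.0546).

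The test of whether Ceefourin 2 altered the size of the PMA decrease called 0 of the 57 genes, against 0.0116% of all genes. This interaction holds the contrast that chose the genes, so its direction is not read here: 48 values were positive and 9 negative. At an unadjusted p below 0.05 there were 13, a count not made over all genes. DESeq2 called 4 of the 57, against 1.42% of all genes. The smallest adjusted p was that of ITGAM, 0.0541, which lies close to the threshold and passed it under some other settings, among them RLE scaling of the libraries (adjusted p = 0.0456).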

How the data were processed

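Poly(A) RNA of MEG-01 cells was sequenced as stranded paired-end libraries. The tools named in the submitters' processing notes are STAR 2.7, on hg38, and RSEM 1.3.1; no annotation release is named. The authors deposited expected counts, which are not normalized, and TPM values, which sum to 999999.44 to 1000000.75 per library (60754 genes, 8 libraries). TPM chose and described the genes. Expected counts were rounded and tested with edgeR 4.0.16 in R 4.3.3: filterByExpr (17314 genes kept, all 57 among them), TMM factors, quasi-likelihood tests in 1 fit of 8 libraries with a mean per group, and Benjamini-Hochberg adjustment over all tested genes, called below 0.05. Rose and fell refer to called genes. The fit had 4 residual degrees of freedom and a biological coefficient of variation of 13.6%. DESeq2 1.42.0 and limma 3.58.1 served as alternatives, and the scripts were tested on simulated data. The standard error of a log2 fold change is its size divided by the square root of F. Positions are from GENCODE v29 (GRCh38), matched by gene identifier, and promoter windows from RefSeq.

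The genes and the lists were chosen with earlier results of these data known. Genes given in every library were the 12 of highest untreated level, the 10 of lowest PMA ratio, those called in the comparisons of Ceefourin 2, those nearest the threshold and those in the lists; 1 of the 57 is counted but is not reported by name, given a role or drawn here. Of the 57, 7 share exons with a gene on the same strand and 12 with one on the other strand.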

Additional observations from a re-analysis of the deposited data

How the results depend on the processing

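The number of genes followed the rule: 88 with an untreated minimum of 1 TPM, 31 with 10 TPM, 123 with a 4-fold and 28 with a 10-fold limit in place of 6-fold, 116 on replicate 1 alone and 87 on replicate 2 alone. It was 46 with TMM-scaled CPM for the fold, and 50 with the PMA plus Ceefourin 2 libraries held to the same limit as the PMA libraries, a second reading of the rule. With PMA plus Ceefourin 2 against Ceefourin 2, 56 or 57 of the 57 were called lower under every alternative run.

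Counts in the other comparisons were small and moved, and the cause was not tested. The shares of all genes called moved too. For PMA plus Ceefourin 2 against PMA, 3.06% were called higher with DESeq2 and 2.29% with no filter, and 1.76% lower with no filter. With only the 4 libraries, 0.748% were called higher and 0.711% lower. For Ceefourin 2 against UT, 3.55% were called higher with DESeq2 and 2.32% with no filter, and 1.6% lower with no filter. The share lower dropped to 0.0994% with only the 4 libraries, from 0.722% in the main fit. It was also below the main fit in every fit without 1 library. Smaller counts of the 57 in those fits are therefore not read as particular to these genes. For the interaction, 1.42% were called with DESeq2 and 1.38% with no filter. For PMA plus Ceefourin 2 against PMA, the count higher (1) was 3 with DESeq2, 5 with no filter on low counts, 0 with limma on either pseudocount, 0 with only the 4 libraries and 0 in all fits without 1 library; the count lower (3) was 6 with no filter, 1 with limma on either pseudocount and 1 to 3 without 1 library. For Ceefourin 2 against UT, the count higher (0) was 2 with DESeq2 and 2 with no filter; the count lower (12) was 23 with no filter, 2 with only the 4 libraries and 2 to 12 without 1 library, with 2 reached without UT replicate 1, 4 without UT replicate 2 and 6 without Cee2 replicate 1. The interaction count (0) was 4 with DESeq2, 1 with RLE scaling, 7 with no filter, 2 with limma on log2(TPM + 1) and 0 to 2 without 1 library. Among alternatives added after seeing the data, leaving out both replicate 1 libraries with PMA gave 0 higher and 0 lower for PMA plus Ceefourin 2 against PMA and 2 lower for Ceefourin 2 against UT. Fits for genes chosen on replicate 1 or 2 alone leave 1 library in the UT group and 1 in the PMA group, so their counts are not read.

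With the replicate number as a block, the counts were 4 higher and 6 lower for PMA plus Ceefourin 2 against PMA, against 4.74% and 3.82% of all genes. They were 2 higher and 24 lower for Ceefourin 2 against UT, against 4.66% and 3.6%. For the interaction the count was 4, against 1.43%, ITGAM among them (adjusted p = 0.0111). ITGAM passed in 5 of the 16 alternatives run for its interaction. Same-numbered libraries deviated together (correlations of 0.282 to 0.711), which with 2 pairs does not show that they are paired.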

Other observations

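Replicates differed unequally within the set. In untreated cells, replicate 1 exceeded replicate 2 by over 1.5 times for 5 genes, FAM43B (1.95 times), SOX21 (1.88 times), TUB (1.72 times), CDCA7 (1.72 times) and SKP2 (1.66 times), and the reverse held for PLA2G6, whose replicate 1 was 0.65 times replicate 2. In Ceefourin 2 cells the same genes kept that order: replicate 2 was 0.31 times replicate 1 for FAM43B, 0.43 for SOX21, 0.66 for TUB, 0.67 for CDCA7 and 0.69 for SKP2, and 1.99 times for PLA2G6. These genes were picked after their values were seen.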
